A study of Arabidopsis thaliana with 4 samples.

Results

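The response of nse4a-2 shoot apices to zebularine was measured by setting the 2 libraries of the group nse4a-2_zeb against the 2 libraries of the group nse4a-2_ctrl, 4 of the 8 libraries of the study, over every gene with values. Plants of nse4a-2_zeb were Col-0 with the mutant allele nse4a-2 of the gene NSE4A, locus AT1G51130, and were moved at an age of 9 days to liquid half-strength medium with 20 µM zebularine. Plants of nse4a-2_ctrl carried the same allele and spent the same 24 h in liquid medium without the drug. The other 4 libraries, WT_zeb and WT_ctrl, were Col-0 wild type under the same 2 treatments and served in the fit and in the test of whether the response differed between genotypes. In all groups, leaves, hypocotyl and roots were cut off and the shoot apices of the 10-day-old plants were frozen for polyA RNA. Neither the lesion behind the allele, the hour of harvest nor the number of plants in a library is given, and the file headers call the 2 libraries of a group biological replicates. The comparison asks what the drug changes in apices whose SMC5/6 complex carries a mutant subunit.

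NSE4A encodes the kleisin subunit of SMC5/6, a ring-shaped ATPase complex related to cohesin and condensin that helps to repair and untangle DNA. Zebularine is a cytidine analogue that is built into DNA and holds DNA methyltransferases there as DNA-protein crosslinks. In plants, damaged DNA activates the transcription factor SOG1, and cells of the meristem then slow or leave the cell cycle. Receptor kinases and receptor-like proteins at the cell surface and NLR proteins inside the cell are the receptors of plant immunity, and WRKY factors act downstream of them. Glutathione S-transferases, glycosyltransferases, cytochromes P450 and efflux carriers modify and remove foreign or toxic molecules.

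Total counts per library ran from 15360494 to 17297457 in the nse4a-2 libraries, and 3 counts were worth 0.173 to 0.195 CPM, reads scaled to a common library size. Of 19682 genes with enough reads to be tested, 1760 (8.94%) rose with zebularine in nse4a-2 and 1129 (5.74%) fell. A gene was called, and is said to have risen or fallen, at an adjusted p below 0.05 in edgeR's quasi-likelihood test over all genes tested. Fold changes below are log2 values of nse4a-2_zeb over nse4a-2_ctrl ± SE, and levels are CPM per library in the order of replicates 1 and 2. NSE4A, the mutated gene, was at 18.5 and 21.1 CPM in nse4a-2_zeb and at 8.40 and 7.79 CPM in nse4a-2_ctrl (1.29 ± 0.17, adjusted p 0.00156). It averaged 11.7 ± 1.64 CPM in WT_zeb and 9.96 ± 1.03 CPM in WT_ctrl (SD, n = 2 each). Its reads do not check the genotype, since it is not given where the allele is broken. Rises were larger than falls: 935 of the called genes were at least 2-fold higher and 218 at least 2-fold lower, with medians of 1.07 and −0.71. Over all genes tested the median was 0.00. Of the called genes, 521 of those that rose and 138 of those that fell stayed called whichever of the 4 nse4a-2 libraries was left out. Without nse4a-2_ctrl replicate 1 the counts were 812 and 559, without nse4a-2_zeb replicate 1 they were 1292 and 581, and without nse4a-2_zeb replicate 2 they were 552 and 161. The authors' deposited table calls 1665 genes higher and 735 lower for the same comparison. The genes called higher here hold 81% of that list of higher genes, and the overlap of 1348 genes is 76.6% of those called here. For the lower genes the overlap of 654 genes is 89% of the authors' deposited list and 57.9% of those called here. Since these are bulk samples, fewer cells of a type and less RNA per cell cannot be told apart.

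**Figure D1:**
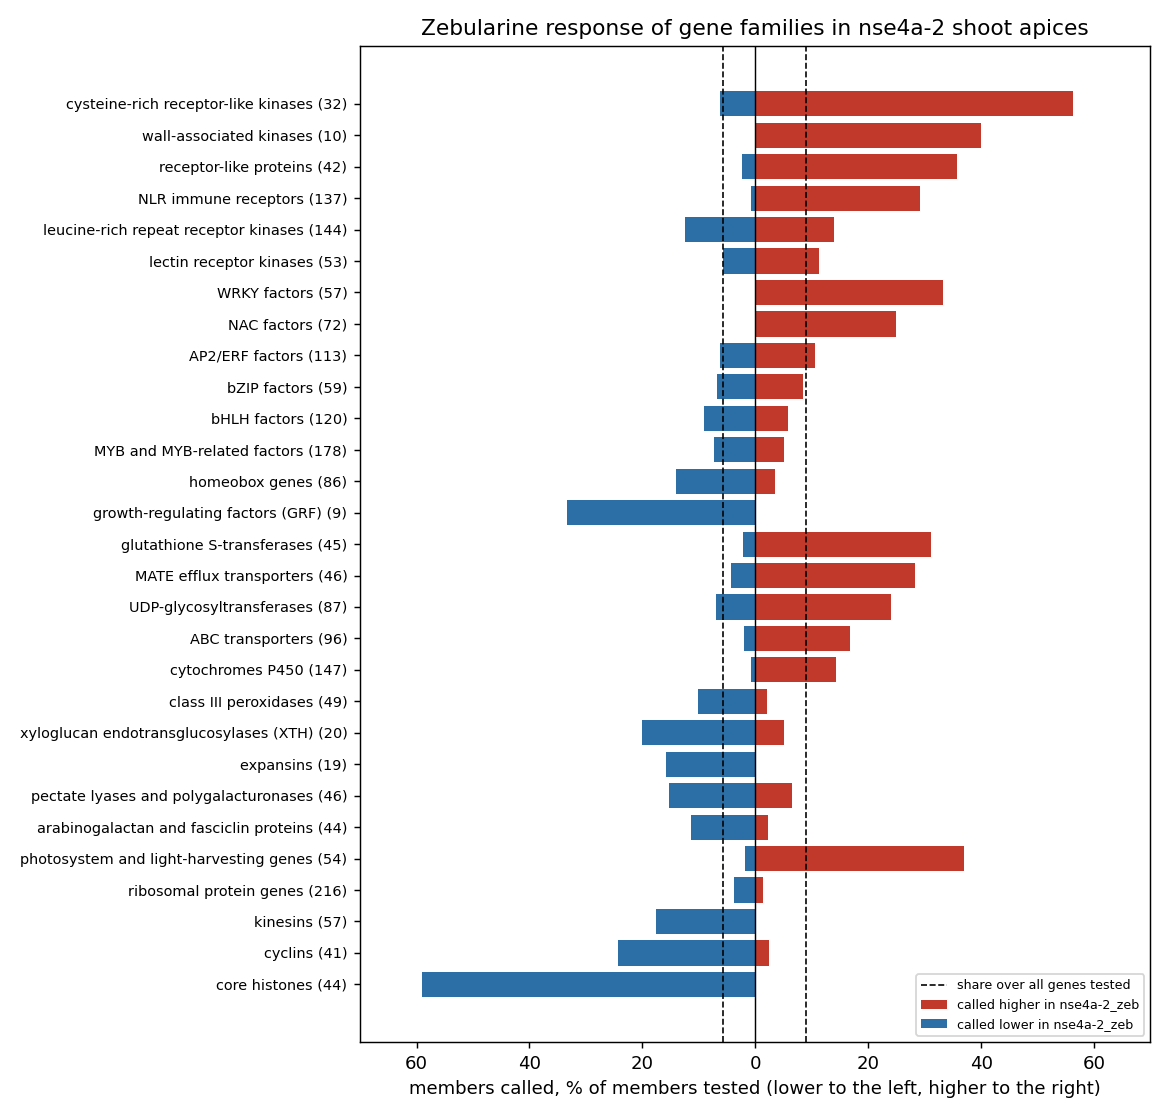
Share of the tested members of each gene family that were called higher (red, to the right) or lower (blue, to the left) in nse4a-2_zeb against nse4a-2_ctrl, in percent, with the number tested in brackets. Dashed lines are the shares over all genes tested, 8.94% higher and 5.74% lower. Cysteine-rich receptor-like kinases (56.2%) and WRKY factors (33.3%) reach well past the line to the right, and core histones (59.1%) and cyclins (24.4%) to the left, while lectin receptor kinases (11.3% and 5.66%) and AP2/ERF factors (10.6% and 6.19%) lie near both lines.

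Cysteine-rich receptor-like kinases (CRKs), membrane kinases with an extracellular domain of conserved cysteines, had the highest share of rises among the receptor families, 56.2% of those tested. Of 38 CRK genes, 32 had enough reads to be tested, and 18 of these rose and 2 fell, with a median of 1.40. CRK36 (AT4G04490) stood at 9.27 and 14.0 CPM in nse4a-2_zeb, against 0.127 and 0.371 CPM in nse4a-2_ctrl. Both zebularine libraries were far above both control libraries, and the change was 5.50 ± 0.51 (adjusted p 0.000329). CRK39 (AT4G04540) had 4 and 3.81 CPM in nse4a-2_zeb and 0 reads in both nse4a-2_ctrl libraries, which made it at least 41.5-fold higher with 3 counts over the 2 control libraries taken as the limit. CRK37 (AT4G04500), 1.97 and 4.21 CPM in nse4a-2_zeb, also had 0 reads in nse4a-2_ctrl and was at least 32.8-fold higher. CRK39 and CRK37 had at most 2 reads in any other group, so they passed the filter on low counts through nse4a-2_zeb. CRKs with few reads in every group were not tested. The shares of CRKs that rose, here and by place below, are therefore partly set by that filter. CRK12 (AT4G23200) was at 5.65 and 7.15 CPM in nse4a-2_zeb, against 0.318 and 0.124 CPM in nse4a-2_ctrl (4.82 ± 0.53, adjusted p 0.000684). Against this direction, CRK30 (AT4G11460) fell by 1.02 and CRK42 (AT5G40380) fell by 1.1. The rises lay mostly in runs of neighbouring genes on chromosome 4. All 4 tested CRKs whose identifiers begin with AT4G04 rose, as did 10 of the 16 that begin with AT4G23, and 4 of the 12 tested elsewhere. Genes in such runs resemble each other, and how the counting treated reads that fit several copies is not stated, so the share of each copy is uncertain. Without nse4a-2_zeb replicate 2 the count of CRKs called higher was 11, and without any 1 of the other nse4a-2 libraries it was 14 to 18.

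The regions before the starts of CRK36 and RLP23, which both rose, are shown because they hold the W-box, the short element that WRKY factors bind. Of the 300 bases before each gene start, CRK36 (chr4:2234690-2234989, minus strand) and RLP23 (AT2G32680, chr2:13862615-13862914, minus strand) each hold 2 W-boxes, in capitals, searched as TTGACC or TTGACT on both strands. All sequences here are read 5′ to 3′ toward the gene from the genome TAIR10.1, with gene starts from its RefSeq annotation.
CRK36: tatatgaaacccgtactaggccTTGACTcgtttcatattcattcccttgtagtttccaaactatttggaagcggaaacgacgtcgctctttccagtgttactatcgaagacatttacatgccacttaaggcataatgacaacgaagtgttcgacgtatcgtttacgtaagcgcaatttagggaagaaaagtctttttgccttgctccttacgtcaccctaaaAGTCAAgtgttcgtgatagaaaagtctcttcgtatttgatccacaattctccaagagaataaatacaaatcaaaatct
RLP23: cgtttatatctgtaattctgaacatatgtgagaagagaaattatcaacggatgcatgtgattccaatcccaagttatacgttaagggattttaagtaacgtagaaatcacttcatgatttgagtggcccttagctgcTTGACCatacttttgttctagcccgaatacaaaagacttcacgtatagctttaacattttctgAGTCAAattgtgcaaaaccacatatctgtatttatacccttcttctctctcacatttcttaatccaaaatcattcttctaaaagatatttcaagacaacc
The W-boxes of CRK36 begin 278 and 78 bases before the gene start, and those of RLP23 163 and 100 bases. Of the 19492 tested genes with such a window, 31.8% hold at least 1 W-box and 7.58% hold 2 or more. Among the genes that rose the shares were 41.4% and 13.5%, and among those that fell 25.4% and 5.6%. Of the 18 CRKs that rose, 11 (61.1%) hold at least 1 and 8 (44.4%) hold 2 or more, and neighbouring copies that resemble each other are counted separately. Other families differed. At least 1 W-box was held by 64.3% of the glutathione S-transferases that rose and by 60% of the receptor-like proteins. The shares were 32.5% for NLR receptors, 22.2% for NAC factors and 15% for photosystem genes that rose. Of the 10 cyclins that fell, 5 (50%) hold at least 1 and 4 (40%) hold 2 or more. A match of letters is a description of the window and not a measured site.

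Other receptors at the cell surface differed by family. Of 52 receptor-like proteins, which carry leucine-rich repeats but no kinase, 42 were tested. Of these 15 (35.7%) rose and 1 (2.38%) fell, with a median of 0.79. RLP23, the receptor for a peptide shared by many necrosis-inducing microbial proteins, was at 4.19 and 7.44 CPM in nse4a-2_zeb and at 0.318 and 0.309 CPM in nse4a-2_ctrl (4.18 ± 0.47, adjusted p 0.000712). RLP34 (AT3G11010) was at 48.4 and 70.1 CPM in nse4a-2_zeb and at 7.44 and 12.8 CPM in nse4a-2_ctrl, 5.85-fold higher (adjusted p 0.000771). RLP38 (AT3G23120) rose by 2.81, and RLP44 (AT3G49750), which acts in brassinosteroid signalling from the cell wall, fell by 0.91. The count of risers was 9 without nse4a-2_ctrl replicate 1 and 9 without nse4a-2_zeb replicate 2.

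Wall-associated kinases bind pectin in the cell wall, and 4 (40%) of the 10 tested (17 in the table) rose and 0 fell. WAK1 (AT1G21250) had 184 and 197 CPM in nse4a-2_zeb against 53.6 and 78.0 CPM in nse4a-2_ctrl (1.53 ± 0.22, adjusted p 0.00232). WAK2 (AT1G21270), its neighbour, rose by 1.27 ± 0.17, and WAK3 (AT1G21240) had 3.81 and 7.61 CPM in nse4a-2_zeb against 0.127 and 0 CPM in nse4a-2_ctrl. The WAK genes are similar neighbours, so their reads are uncertain in the same way as those of the CRKs. Of 53 lectin receptor kinases tested 6 (11.3%) rose and 3 (5.66%) fell, shares near those over all genes. AT1G11330 rose by 1.19 and AT1G61390 fell by 1.37, and the count of risers was 1 without nse4a-2_ctrl replicate 1, 1 without nse4a-2_zeb replicate 2 and 3 without nse4a-2_zeb replicate 1. Leucine-rich repeat receptor kinases, the family of both immune and developmental receptors, had 20 (13.9%) of 144 tested higher and 18 (12.5%) lower. The family median was 0.03. AT1G34420 rose by 2.19 ± 0.34 and AT2G01210 fell by 0.98 ± 0.18. AT3G24240 had 0 and 0.115 CPM in nse4a-2_zeb and 0.763 and 3.22 CPM in nse4a-2_ctrl, where the 2 control libraries differed widely. Without nse4a-2_zeb replicate 2 the counts for this family were 4 higher and 0 lower, without nse4a-2_ctrl replicate 1 they were 7 and 18, and without nse4a-2_ctrl replicate 2 they were 22 and 4. Without nse4a-2_zeb replicate 1 they were 16 and 11.

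NLR immune receptors, the intracellular sensors of pathogen effectors, rose in 40 cases (29.2%) and fell in 1 (0.73%) of 137 tested (175 in the table). The family median was 0.58. AT3G04220, a receptor of the TIR class, was at 6.73 and 13.0 CPM in nse4a-2_zeb, against 0.191 and 0.124 CPM in nse4a-2_ctrl (5.92 ± 0.72, adjusted p 0.00158). The zebularine libraries differed from each other by nearly 2-fold and were both far above the controls. AT4G14370, also of the TIR class, rose by 3.39 ± 0.43. AT4G19530 was the 1 that fell, by 0.96 ± 0.24. The NLR count rested on 2 libraries: it was 13 without nse4a-2_ctrl replicate 1 and 11 without nse4a-2_zeb replicate 2, against 45 and 33 without the other replicate of each group.

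**Figure D2:**
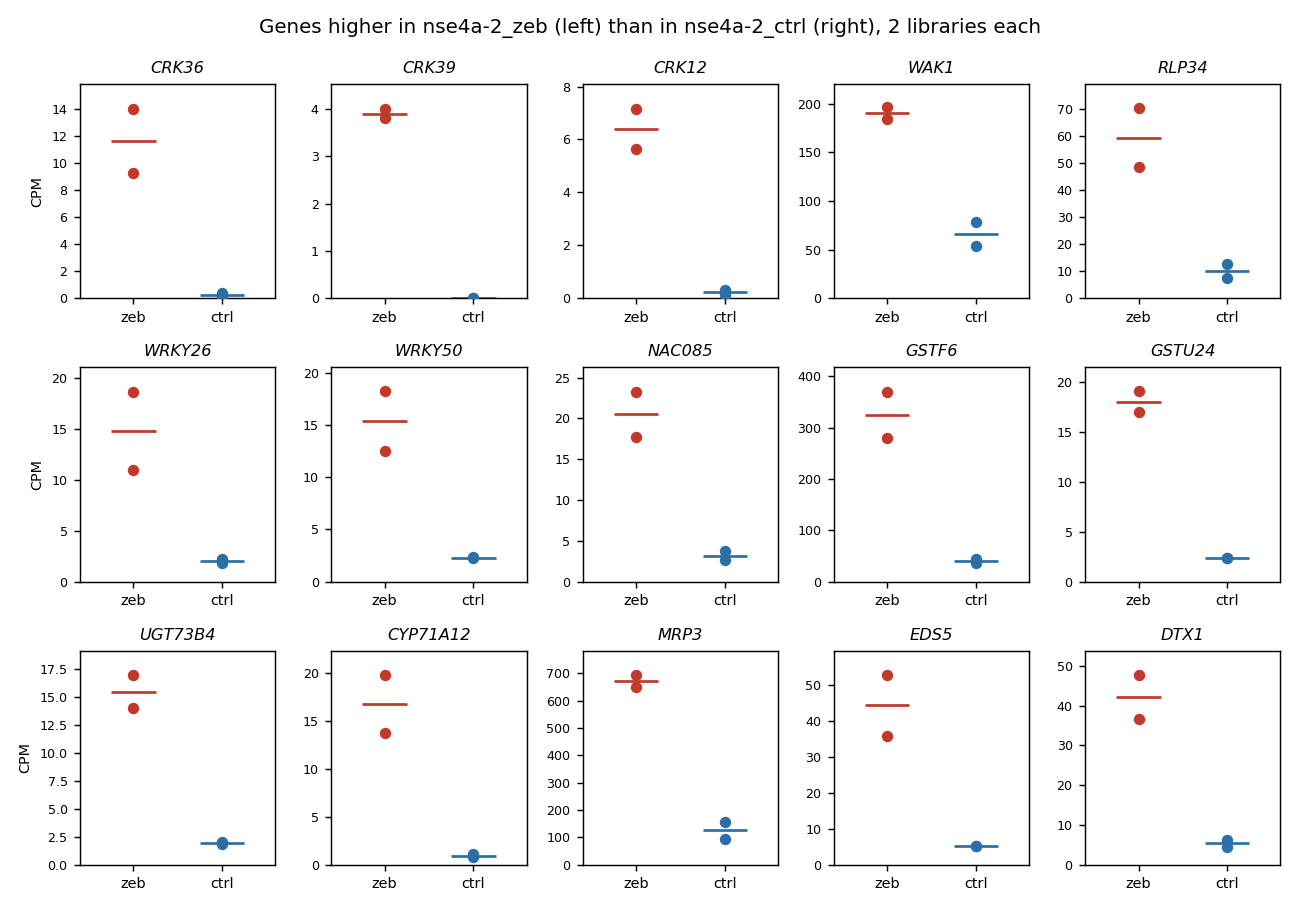
CPM of 15 named genes that rose, 1 panel each, in the 2 libraries of nse4a-2_zeb (red, left) and of nse4a-2_ctrl (blue, right), on axes that start at 0. Points are libraries and the bar is their mean. In every panel both zebularine libraries lie above both control libraries, as for CRK39 at 4 and 3.81 CPM against 0 in both controls.

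Among transcription factors, the WRKY and NAC families had rises and 0 falls by edgeR. Of 57 WRKY genes tested (73 in the table), 19 (33.3%) rose, with a median of 0.47. WRKY26 (AT5G07100) was at 11 and 18.7 CPM in nse4a-2_zeb and at 1.78 and 2.23 CPM in nse4a-2_ctrl (2.89 ± 0.33, adjusted p 0.000795). WRKY50 (AT5G26170), a factor of salicylate-driven defence, was at 12.5 and 18.2 CPM in nse4a-2_zeb and at 2.35 and 2.23 CPM in nse4a-2_ctrl (2.74 ± 0.35, adjusted p 0.00134). WRKY30 (AT5G24110) rose by 3.69 from low counts, with 2.1 and 4.50 CPM in nse4a-2_zeb and 0.0636 and 0.433 CPM in nse4a-2_ctrl. The WRKY count was 10 without nse4a-2_ctrl replicate 1 and 5 without nse4a-2_zeb replicate 2.

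Of 72 NAC genes tested (113 in the table), 18 (25%) rose and 0 fell, with a median of 0.48. NAC085 (AT5G14490), which represses G2 and M genes after DNA damage and is a target of SOG1, was at 17.7 and 23.3 CPM in nse4a-2_zeb and at 2.61 and 3.71 CPM in nse4a-2_ctrl (2.69 ± 0.25, adjusted p 0.000336). NAC090 (AT5G22380) was at 2.22 and 3.69 CPM in nse4a-2_zeb and at 0.0636 and 0.309 CPM in nse4a-2_ctrl. The NAC count was 11 without nse4a-2_ctrl replicate 1 and 10 without nse4a-2_zeb replicate 2. The window before NAC085 (chr5:4672959-4673258, minus strand) is shown because it holds the motif bound by SOG1, CTT and AAG with any 7 bases between them, in capitals and beginning 270 bases before the gene start.
NAC085: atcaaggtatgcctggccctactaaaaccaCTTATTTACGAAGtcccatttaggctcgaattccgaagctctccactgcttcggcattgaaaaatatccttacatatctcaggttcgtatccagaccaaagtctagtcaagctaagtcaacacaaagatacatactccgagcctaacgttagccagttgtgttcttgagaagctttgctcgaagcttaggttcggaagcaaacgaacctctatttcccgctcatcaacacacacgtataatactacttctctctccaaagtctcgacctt
That motif, searched on both strands, is in 10.7% of the windows of all tested genes, in 14.2% of those of the genes that rose and in 8.72% of those of the genes that fell. Of the 27 tested genes of a DNA damage list, drawn up as targets of SOG1, 16 (59.3%) rose and 2 (7.41%) fell. Of the 16 that rose 6 (37.5%) hold the motif. A list made of SOG1 targets would hold that motif often, so this share is no separate evidence. SMR7 (AT3G27630), which blocks cyclin-dependent kinases, was 5.93-fold higher and GMI1 (AT5G24280), an SMC-like protein induced by irradiation, was 3.53-fold higher. BARD1 (AT1G04020), a repair ubiquitin ligase, fell by 0.59, and the histone variant gene GAMMA-H2AX (AT1G54690) fell by 0.57. The count of 16 was 10 without nse4a-2_zeb replicate 2.

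Several large families had shares near those over all genes, 8.94% higher and 5.74% lower. Of 113 AP2/ERF genes tested, 12 (10.6%) rose and 7 (6.19%) fell. DREB19 (AT2G38340) was at 30.4 and 39.8 CPM in nse4a-2_zeb, against 3.63 and 3.09 CPM in nse4a-2_ctrl (3.38 ± 0.28, adjusted p 0.000199). DREB2C (AT2G40340), a heat-related activator, rose by 1.81 ± 0.27, and CRF1 (AT4G11140), a cytokinin response factor, fell by 1.16 ± 0.20. Among 59 bZIP genes 5 (8.47%) rose and 4 (6.78%) fell. HY5 (AT5G11260), the central activator of light-driven seedling development, was at 4.13 and 3.69 CPM in nse4a-2_zeb and at 14.7 and 16.6 CPM in nse4a-2_ctrl, and fell by 2 ± 0.18 (adjusted p 0.000265). The 2 groups of HY5 values lay far apart. BZIP60 (AT1G42990), a factor of the unfolded protein response, rose by 1.12, and ABI5 (AT2G36270), an abscisic acid regulator, by 0.91. Of 178 MYB and MYB-related genes, 9 (5.06%) rose and 13 (7.3%) fell. MYB51 (AT1G18570), an activator of indole glucosinolate synthesis, rose by 2.14 ± 0.53, and MYB0 (AT3G27920, GLABRA1), which starts trichomes, fell by 1.3 ± 0.26. Without nse4a-2_zeb replicate 2 these counts were 2 and 1 for AP2/ERF, 0 and 1 for bZIP and 5 and 3 for MYB genes. Without nse4a-2_ctrl replicate 1 they were 3 and 4, 0 and 1, and 6 and 4. Without nse4a-2_ctrl replicate 2 they were 5 and 6, 2 and 3, and 5 and 12, and without nse4a-2_zeb replicate 1 they were 9 and 3, 4 and 1, and 10 and 4. Of 120 bHLH genes 7 (5.83%) rose and 11 (9.17%) fell, and of 125 C2H2 zinc finger genes 11 (8.8%) rose and 7 (5.6%) fell. The C2H2 falls include HB25, also counted among the homeobox genes, and AT5G61940, annotated as related to ubiquitin hydrolases. The wording of their descriptions put both on the list. Without nse4a-2_ctrl replicate 1 these counts were 4 and 4 for bHLH and 2 and 3 for C2H2 genes, and without nse4a-2_ctrl replicate 2 they were 4 and 5, and 10 and 5. Without nse4a-2_zeb replicate 1 they were 7 and 5, and 7 and 5, and without nse4a-2_zeb replicate 2 they were 2 and 3, and 0 and 2.

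Homeobox genes and growth-regulating factors had more falls than rises. Of 86 homeobox genes tested 3 (3.49%) rose and 12 (14%) fell, with a median of −0.14. BLH2 (AT4G36870), a BEL1-like factor of leaf shape, was at 9.02 and 9.57 CPM in nse4a-2_zeb and at 21.1 and 22.8 CPM in nse4a-2_ctrl (−1.24 ± 0.15, adjusted p 0.00111). The zinc-finger homeobox genes HB31 (AT1G14440) and HB25 (AT5G65410) each fell by 1.01 ± 0.12, and KNAT6 (AT1G23380), a KNOX gene of the meristem and its boundaries, rose by 0.74 ± 0.15. Of 9 growth-regulating factors (GRFs), a family that acts with GIF coactivators on cell number in leaves, 3 (33.3%) fell and 0 rose. GRF9 (AT2G45480) was at 10.0 and 8.76 CPM in nse4a-2_zeb and at 22.6 and 21.5 CPM in nse4a-2_ctrl (−1.23 ± 0.13, adjusted p 0.000611). GRF6 (AT2G06200) fell by 1.48 and GRF4 (AT3G52910) by 0.91. The homeobox falls numbered 8 to 10 without any 1 of 3 nse4a-2 libraries and 3 without nse4a-2_zeb replicate 2, and the GRF falls 2, 2, 2 and 1. In the GRAS family 5 (15.2%) of 33 rose and 3 (9.09%) fell. SCL13 (AT4G17230) was 3.94-fold higher and the DELLA gene RGL1 (AT1G66350), a gibberellin repressor, lower by 0.81 on the log2 scale. The flowering activator AGL20 (AT2G45660, SOC1) rose by 0.94. Of 28 MADS-box genes tested 3 (10.7%) rose, near the 8.94% over all genes, and 0 fell. With nse4a-2_ctrl replicate 1 or nse4a-2_zeb replicate 2 left out, GRAS and MADS-box rises numbered 1 each.

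Among detoxification families, conjugating enzymes and carriers had more rises than falls, and class III peroxidases, described with the cell wall, more falls. Over all genes rises also outnumbered falls, 8.94% against 5.74%. Of 45 glutathione S-transferases tested (53 in the table), which couple glutathione to reactive molecules, 14 (31.1%) rose and 1 fell. GSTF6 (AT1G02930) was at 280 and 370 CPM in nse4a-2_zeb and at 35.9 and 43.7 CPM in nse4a-2_ctrl (3.03 ± 0.20, adjusted p 8.96e-05), with a close neighbouring copy that makes its reads uncertain. GSTU24 (AT1G17170) was at 17 and 19.1 CPM in nse4a-2_zeb and at 2.35 and 2.41 CPM in nse4a-2_ctrl, 7.56-fold higher. GSTU4 (AT2G29460) was 23.6-fold higher, and GSTU27 (AT3G43800) was the 1 that fell, by 0.51. The count of 14 was 9 without nse4a-2_zeb replicate 2. The list's median of 0.24 was small beside its calls, since 30 of the 45 did not pass the test.

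Of 87 UDP-glycosyltransferases tested, which attach sugars to small molecules, 21 (24.1%) rose and 6 (6.9%) fell. UGT73B4 (AT2G15490) was at 14.0 and 17 CPM in nse4a-2_zeb, against 1.84 and 2.04 CPM in nse4a-2_ctrl (2.99 ± 0.27, adjusted p 0.000326). UGT76D1 (AT2G26480) was 11.4-fold higher, and UGT85A5 (AT1G22370) fell by 2.81 at low counts. Of 147 cytochromes P450 tested (248 in the table), 21 (14.3%) rose and 1 (0.68%) fell. CYP71A12 (AT2G30750), which makes indole-acetonitrile for indolic defence compounds, was at 13.7 and 19.7 CPM in nse4a-2_zeb and at 0.827 and 1.11 CPM in nse4a-2_ctrl (4.09 ± 0.38, adjusted p 0.000329). CYP76C2 (AT2G45570) was 25.8-fold higher. CYP96A5 (AT2G21910) had 0 reads in nse4a-2_ctrl and was at least 13-fold higher. CYP707A2 (AT2G29090), which degrades abscisic acid, was the 1 that fell, by 1.5. Without nse4a-2_ctrl replicate 1 the rises numbered 13 among glycosyltransferases and 9 among P450s, and without nse4a-2_zeb replicate 2 they numbered 10 and 9.

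Among carriers, of 96 ABC transporters tested 16 (16.7%) rose and 2 (2.08%) fell. MRP3 (AT3G13080, ABCC3), which moves glutathione conjugates into the vacuole, was at 695 and 650 CPM in nse4a-2_zeb and at 93.6 and 158 CPM in nse4a-2_ctrl (2.42 ± 0.29, adjusted p 0.000987). PDR10 (AT3G30842) had 0 reads in nse4a-2_ctrl and was at least 13.3-fold higher. Of 46 MATE efflux carriers tested 13 (28.3%) rose and 2 (4.35%) fell. Of those 2, 1 was the RNase P gene PRORP1, which the wording of its description put on the list. EDS5 (AT4G39030), which exports the precursor of salicylic acid from the chloroplast, was at 35.9 and 52.9 CPM in nse4a-2_zeb, against 5.22 and 5.26 CPM in nse4a-2_ctrl (3.08 ± 0.25, adjusted p 0.000195). DTX1 (AT2G04040), an exporter of toxic compounds, was at 36.6 and 47.7 CPM in nse4a-2_zeb and at 4.58 and 6.37 CPM in nse4a-2_ctrl, 7.68-fold higher. AT1G15170, another MATE gene, rose by 2.1 ± 0.20. Without nse4a-2_ctrl replicate 1 there were 8 ABC and 4 MATE rises, and without nse4a-2_zeb replicate 2 there were 5 and 4. Of the 6 tested genes for alternative oxidases and alternative NAD(P)H dehydrogenases, which bypass the usual chain of mitochondrial respiration, 3 (50%) rose. These were AOX1A (AT3G22370) by 2.09 ± 0.24, NDB2 (AT4G05020) by 1.96 ± 0.15 and NDA2 (AT2G29990) by 1.1 ± 0.25.

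Calcium and protein quality genes differed in their shares of rises, beside 8.94% over all genes. Of 59 calmodulin-like and EF-hand genes 12 (20.3%) rose and 0 fell, and AT3G47480 stood at 13.6 and 22.4 CPM in nse4a-2_zeb against 0.509 and 0.619 CPM in nse4a-2_ctrl. CML41 (AT3G50770), which acts at plasmodesmata in defence, rose by 2.39 ± 0.36. This count was 6 without nse4a-2_ctrl replicate 1 and 5 without nse4a-2_zeb replicate 2. Of 69 chaperones 4 (5.8%) rose and 1 (1.45%) fell, shares below those over all genes, with HSP90.1 (AT5G52640) 2.99-fold higher and the mitochondrial HSP60 (AT3G23990) lower by 0.50 on the log2 scale. HSFA2 (AT2G26150), a heat shock factor, was at 1.65 and 1.67 CPM in nse4a-2_zeb and at 0.318 and 0.309 CPM in nse4a-2_ctrl. Of 37 proteasome subunits 5 (13.5%) rose and 0 fell, all by small amounts, as PAD2 (AT5G66140) by 0.64. The proteasome count was 0 without nse4a-2_zeb replicate 2 and 1 to 3 without any 1 of the other nse4a-2 libraries.

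Cell wall families differed in direction, by few calls each, and their shares are to be read beside 8.94% higher and 5.74% lower over all genes. Of 20 xyloglucan endotransglucosylases (XTHs) tested, which cut and rejoin the xyloglucan of growing walls, 4 (20%) fell and 1 (5%) rose. The family median was 0.19, so the falls were not those of the family as a whole. XTH9 (AT4G03210) was at 155 and 108 CPM in nse4a-2_zeb and at 298 and 328 CPM in nse4a-2_ctrl (−1.25 ± 0.19, adjusted p 0.00294). XTH16 (AT3G23730) was at 50.0 and 39.3 CPM in nse4a-2_zeb and at 81.7 and 90.3 CPM in nse4a-2_ctrl (−0.95 ± 0.14), and XTH28 (AT1G14720) rose by 0.59. Of 19 expansins, which loosen walls, 3 (15.8%) fell and 0 rose: EXPA14 (AT5G56320) by 1.88, EXLB1 by 0.79 and EXPA15 (AT2G03090) by 0.60. Of 46 pectate lyases and polygalacturonases and their relatives 7 (15.2%) fell and 3 (6.52%) rose. AT3G53190, a pectin lyase-like gene, was at 44.8 and 43.3 CPM in nse4a-2_zeb and at 90.0 and 102 CPM in nse4a-2_ctrl (−1.12 ± 0.11, adjusted p 0.000395), and AT3G61490 fell by 1.44. PGIP1 (AT5G06860), an inhibitor of fungal polygalacturonases that the wording put on this list, rose by 2.06 ± 0.22. CSLA11 (AT5G16190), a cellulose synthase-like gene, fell by 1.54, 1 of 3 falls (11.5%) among 26 tested, where the median was 0.10. With each nse4a-2 library left out in turn, falls numbered 2 to 4 for XTHs, 0 to 2 for expansins and 3 to 6 for the pectin genes. The lowest values were without nse4a-2_ctrl replicate 2 or nse4a-2_zeb replicate 2 for XTHs, without nse4a-2_zeb replicate 1 for expansins and without nse4a-2_zeb replicate 2 for the pectin genes.

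Arabinogalactan and fasciclin proteins of the cell surface fell in 5 cases (11.4%) and rose in 1 (2.27%) of 44. The riser AGP5 (AT1G35230) was at 32.5 and 46.0 CPM in nse4a-2_zeb and at 3.18 and 3.46 CPM in nse4a-2_ctrl (3.56 ± 0.24, adjusted p 0.000112), and FLA10 (AT3G60900) fell by 0.99. Class III peroxidases, which act on the wall and on hydrogen peroxide, fell in 5 cases (10.2%) and rose in 1 (2.04%) of 49. The riser was PRXCB (AT3G49120), an oxidative burst peroxidase, at 1.2 ± 0.20. AT1G49570 was at 2.03 and 1.90 CPM in nse4a-2_zeb and at 12.1 and 3.40 CPM in nse4a-2_ctrl, where replicate 1 was the high one. Without nse4a-2_zeb replicate 2 both families had 0 falls, and without nse4a-2_ctrl replicate 2 both had 1. Of 43 pectin methylesterases and their inhibitors 2 (4.65%) rose, a share below that over all genes, and 0 fell. Among the 2, AT2G26440 rose by 1.14.

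Some of the largest falls were of genes near 0 in nse4a-2_zeb. Of 80 extensins and proline-rich proteins tested 7 rose and 6 fell, shares of 8.75% and 7.5%. With nse4a-2_ctrl replicates 1 and 2 and nse4a-2_zeb replicates 1 and 2 left out in turn, rises numbered 3, 4, 5 and 1 and falls 3, 3, 3 and 2. AT1G23720, an extensin-like gene, had 0 reads in nse4a-2_zeb and 2.16 and 4.27 CPM in nse4a-2_ctrl, at least 35.5-fold lower. PRP1 (AT1G54970) had 0 reads in nse4a-2_zeb and 1.78 and 0.990 CPM in nse4a-2_ctrl, at least 15.3-fold lower. AT3G54580, also extensin-like, had 0.0635 and 0 CPM in nse4a-2_zeb and 2.80 and 2.17 CPM in nse4a-2_ctrl. The mannose-binding lectin genes AT2G25980 and AT1G52070 were at 0 reads in nse4a-2_zeb and at least 42-fold and 36.8-fold lower. The LEA gene AT5G54370 was at least 19.9-fold lower. BGLU21 (AT1G66270), a beta-glucosidase, was at 0.0635 and 0.288 CPM in nse4a-2_zeb and at 14.5 and 24.4 CPM in nse4a-2_ctrl. AT1G23720, AT1G52070 and AT3G54580 were called in 0 of the 4 fits without 1 nse4a-2 library, AT5G54370 in 1, BGLU21 in 2, AT2G25980 in 3 and PRP1 in 4.

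Beside these falls stand the markers of the root, an organ that dissection was to remove. Of 10 root markers 5 were tested, 1 rose and 1 fell, and their summed level was 74.8 and 80 CPM in nse4a-2_zeb and 84.4 and 96.3 CPM in nse4a-2_ctrl. Most of that sum was SHR and SCR, which shoots also express. Of the root-specific markers, the root hair gene PRP3 was at 0.127 and 0.173 CPM in nse4a-2_zeb and at 1.40 and 0.557 CPM in nse4a-2_ctrl. RHD6, EXPA7 and PLT1 had 0 reads in nse4a-2_zeb and between 0.0619 and 0.371 CPM in nse4a-2_ctrl. WOX5, a gene of the root stem cell niche, was at 2.41 and 2.31 CPM in nse4a-2_zeb and at 3.05 and 2.29 CPM in nse4a-2_ctrl (−0.18 ± 0.34), and did not pass the test. RSL4 and PLT2 were at most 0.115 CPM in nse4a-2_zeb and at most 0.619 CPM in nse4a-2_ctrl. SHV2 (AT5G49270, COBL9), also a root hair gene, rose, with 2.41 and 3.52 CPM in nse4a-2_zeb and 0.254 and 0.124 CPM in nse4a-2_ctrl (3.93 ± 0.62). The part of root tissue in the falls was not tested.

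Core histones had the highest share of falls among the families tested. Of 44 core histone genes tested (48 in the table), 26 (59.1%) fell and 0 rose, with a median of −0.68. AT3G27360, a histone H3 gene, was at 37.3 and 43.0 CPM in nse4a-2_zeb and at 104 and 90.5 CPM in nse4a-2_ctrl (−1.28 ± 0.17, adjusted p 0.00177). AT3G46320, a histone H4 gene, was at 31.4 and 35.0 CPM in nse4a-2_zeb and at 80.3 and 65.5 CPM in nse4a-2_ctrl (−1.13 ± 0.13, adjusted p 0.000762). HTB2 (AT5G22880), a histone H2B gene, was at 136 and 133 CPM in nse4a-2_zeb and at 319 and 268 CPM in nse4a-2_ctrl (−1.12 ± 0.13, adjusted p 0.000712). In all 3 the groups did not overlap. Genes for the replacement histones, which are made outside S phase, were chosen after their values were seen. The H3.3 genes AT4G40030, AT4G40040 and AT5G10980 changed by 0.02, 0.03 and −0.05, each ± 0.11, and the H2A.Z gene HTA9 (AT1G52740) by 0.03 ± 0.13, none past the test. Not every histone variant stayed level. The H2A variant gene GAMMA-H2AX (AT1G54690) fell by 0.57 ± 0.12 (adjusted p 0.0126), with values of −0.64 to −0.50 in the fits without 1 nse4a-2 library. With single nse4a-2 libraries left out, AT4G40040 and HTA9 lay on either side of 0. Histone copies are nearly identical, so the split of reads among them is uncertain. The count of falls was 19 to 29 with each nse4a-2 library left out, the steadiest of the families described here in which 10 or more genes fell.

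Of 41 cyclins tested 10 (24.4%) fell and 1 (2.44%) rose. CYCD3;1 (AT4G34160), a cyclin of the entry into the cycle, was at 33.7 and 28.7 CPM in nse4a-2_zeb and at 49.5 and 60.4 CPM in nse4a-2_ctrl (−0.82 ± 0.15, adjusted p 0.0082). The riser was CYCB1;1 (AT4G37490), a B-type cyclin that DNA damage induces in plants, at 74.6 and 68.7 CPM in nse4a-2_zeb and at 45.9 and 51.2 CPM in nse4a-2_ctrl (0.56 ± 0.13, adjusted p 0.0198). It went against the rest of its family, and was called in 1 of the 4 fits without 1 nse4a-2 library. Of 57 kinesins 10 (17.5%) fell and 0 rose. HIK (AT1G18370, HINKEL), a motor of the phragmoplast in cytokinesis, was at 80.5 and 61.3 CPM in nse4a-2_zeb and at 109 and 121 CPM in nse4a-2_ctrl (−0.69 ± 0.16, adjusted p 0.0222). AT2G28620, a kinesin-like gene, fell by 0.68. Of 16 tubulins 1 (6.25%) rose, TUA1 (AT1G64740) by 0.60, and 0 fell. Without nse4a-2_zeb replicate 2 the falls numbered 2 among cyclins and 0 among kinesins, without nse4a-2_ctrl replicate 2 they numbered 5 and 2, and without nse4a-2_ctrl replicate 1 they numbered 6 and 6. All falls named here were smaller than 1 on the log2 scale.

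The windows before HIK (chr1:6324379-6324678, minus strand) and the H4 gene AT3G46320 (chr3:17020429-17020728, minus strand) are shown because they hold AACGG, the core of the element through which MYB3R factors act on G2 and M genes, in capitals on either strand.
HIK: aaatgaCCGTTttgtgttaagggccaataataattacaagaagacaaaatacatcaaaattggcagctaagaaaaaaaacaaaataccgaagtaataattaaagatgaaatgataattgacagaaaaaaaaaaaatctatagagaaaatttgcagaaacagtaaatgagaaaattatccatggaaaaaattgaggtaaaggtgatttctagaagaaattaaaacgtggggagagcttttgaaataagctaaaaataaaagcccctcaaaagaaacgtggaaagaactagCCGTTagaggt
AT3G46320: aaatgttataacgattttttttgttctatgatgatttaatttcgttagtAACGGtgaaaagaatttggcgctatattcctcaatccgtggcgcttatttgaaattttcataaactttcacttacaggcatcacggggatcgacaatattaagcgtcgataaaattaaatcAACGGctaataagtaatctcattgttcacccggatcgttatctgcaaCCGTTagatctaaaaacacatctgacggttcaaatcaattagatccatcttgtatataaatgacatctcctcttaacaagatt
The core begins 294 and 11 bases before the start of HIK and 251, 130 and 83 bases before that of AT3G46320. It is in 24.8% of the windows of all tested genes, in 31.5% of those of the genes that fell and in 22.4% of those of the genes that rose. Of the 10 kinesins that fell 7 (70%) hold it, of the 10 cyclins 5 (50%) and of the 26 histones 17 (65.4%), where similar copies share their sequence.

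**Figure D3:**
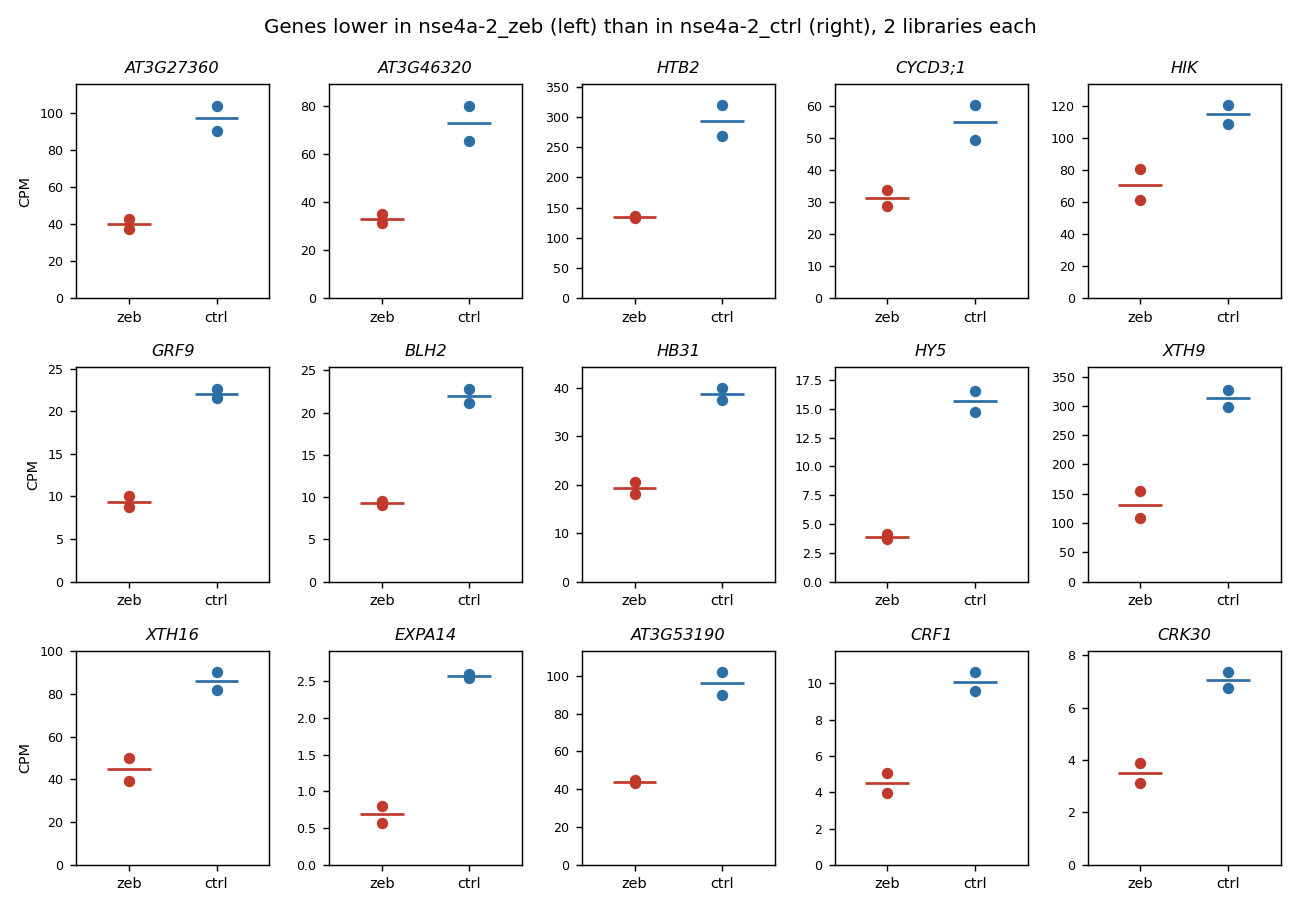
CPM of 15 named genes that fell, 1 panel each, in the 2 libraries of nse4a-2_zeb (red, left) and of nse4a-2_ctrl (blue, right), on axes that start at 0. Points are libraries and the bar is their mean. In every panel both zebularine libraries lie below both control libraries, as for HTB2 at 136 and 133 CPM against 319 and 268 CPM.

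Hormone families of growth were small, and their shares of calls are to be read beside 8.94% higher and 5.74% lower over all genes. Of 53 SAUR genes, small auxin-induced growth genes, 2 (3.77%) rose and 3 (5.66%) fell, among them AT1G72430 by 0.80. Of 34 Aux/IAA and GH3 genes 3 (8.82%) rose and 0 fell, with IAA29 (AT4G32280) 3.84-fold higher. Of 15 auxin transport genes 1 (6.67%) rose and 2 (13.3%) fell, among them the efflux carrier PIN4 (AT2G01420) by 0.67 ± 0.14. Of 9 type-A response regulators, cytokinin-induced repressors of cytokinin signalling, 2 (22.2%) fell, ARR15 (AT1G74890) by 1.57 and ARR4 (AT1G10470) by 0.52. Of 14 gibberellin oxidases and GASA genes edgeR called 0, and the largest value was GA2OX6 at 0.81 ± 0.43 (adjusted p 0.247). At an unadjusted p below 0.05 the count was 3, and DESeq2 called 1 higher. Ribosomal protein genes had a median of −0.26 over 216 tested, with 3 (1.39%) called higher and 8 (3.7%) lower, as RPSAb (AT3G04770) by 0.64. That count of falls hung on single libraries: it was 67 without nse4a-2_ctrl replicate 2, and 1, 1 and 0 without nse4a-2_ctrl replicate 1, nse4a-2_zeb replicate 1 and nse4a-2_zeb replicate 2.

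Photosystem and light-harvesting genes rose in 20 cases (37%) and fell in 1 of 54 tested, with a median of 0.43. LHCB2.1 (AT2G05100), an antenna protein of photosystem II, was at 352 and 378 CPM in nse4a-2_zeb and at 89.2 and 65.3 CPM in nse4a-2_ctrl (2.24 ± 0.17, adjusted p 0.000138). LHB1B1 (AT2G34430) was 4.53-fold higher, and AT3G05410 fell by 1.29. LHCB genes have close copies, which makes single values uncertain. The count of 20 was 11 without nse4a-2_ctrl replicate 1 and 11 without either nse4a-2_zeb library.

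Markers of tissues were read beside these families. Of 10 shoot meristem markers 8 were tested, KNAT6 rose and 0 fell, and their summed level was 142 and 136 CPM in nse4a-2_zeb and 120 and 139 CPM in nse4a-2_ctrl. STM was at 17.5 and 13.6 CPM in nse4a-2_zeb and at 21.3 and 19.4 CPM in nse4a-2_ctrl, not past the test. WUS had 0 reads in nse4a-2_zeb and at most 0.124 CPM in nse4a-2_ctrl, and CLV3 was under 0.4 CPM in all 4 libraries. The 9 leaf photosynthesis markers summed to 26526 and 23899 CPM in nse4a-2_zeb and to 14806 and 16314 CPM in nse4a-2_ctrl, and 5 of them rose. Most are light-harvesting genes, and LHCB2.1 is also on the photosystem list, so these markers are no separate evidence of more leaf tissue. Of the others, RCA rose by 0.78 ± 0.22. RBCS1A, at 0.28 ± 0.21, and GAPA, at 0.38 ± 0.20, did not pass the test. Of 9 stomatal markers 2 fell, EPF2 by 1.82 and TMM by 1.1, and the sum was 209 and 176 CPM in nse4a-2_zeb and 249 and 258 CPM in nse4a-2_ctrl. Of 8 vascular markers 0 were called by edgeR or DESeq2, and 0 had an unadjusted p below 0.05. Of 7 epidermal and trichome markers 1 fell, MYB0. Of 7 markers of senescing or dying tissue 5 were tested and SAG13 rose by 4.86, while SAG12 had 0 reads in all 4 libraries. The part of a shift in tissue in the rise of the photosystem genes was not tested.

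Clock genes moved as well, on a list of 12 drawn up after values were seen. In nse4a-2, 6 rose and 0 fell: LHY by 2.41, CCA1 by 1.62, RVE8 by 1.83, PRR9 by 2.94, PRR7 by 1.18 and GI by 1.29. In wild type 3 of the same 12 rose and 4 fell, and the medians were 0.86 in nse4a-2 and −0.32 in wild type. Among the wild-type rises were LHY by 2.76 and RVE8 by 2.11. LHY, a dawn repressor, was at 74.5 and 75.7 CPM in nse4a-2_zeb and at 16.0 and 12.4 CPM in nse4a-2_ctrl. Light-harvesting genes follow the clock, and since harvest hours are not given, an effect of zebularine on these genes and another hour of harvest cannot be told apart.

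The largest rises over all genes were UGE5 (AT4G10960), a UDP-glucose epimerase, with 5.59 and 9.86 CPM in nse4a-2_zeb and 0 reads in nse4a-2_ctrl, at least 82.1-fold higher, and TAT3 (AT2G24850), a jasmonate-induced aminotransferase. TAT3 had 695 reads in nse4a-2_zeb against 1 read in nse4a-2_ctrl. UGE5 also rose in wild type, with 59 reads in WT_zeb and 0 in WT_ctrl. TAT3, with 31 reads in WT_zeb and 4 in WT_ctrl, did not pass the test there. ARI12 (AT1G05880), a ubiquitin ligase of the RBR type, and PP2-B5 (AT2G02300), an F-box protein, were at least 22.3-fold and 21.3-fold higher. In WT_zeb and WT_ctrl, ARI12 had 6 and 1 reads and PP2-B5 had 0 and 1, so nearly all their reads were in nse4a-2_zeb.

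Whether the response differed between genotypes was asked by testing the difference of both responses, nse4a-2 minus wild type. Zebularine in wild type called 327 genes higher (1.66%) and 125 lower (0.635%), and the difference itself was called for 108 genes higher (0.549%) and 44 lower (0.224%). Of the genes that rose in nse4a-2, 156 also rose in wild type, and of those that fell 51 also fell. The difference was called for 99 of the 1760 genes that rose and for 37 of the 1129 that fell, so for most of them a different response in the 2 genotypes was not shown. Without nse4a-2_zeb replicate 2 the difference was called for 5 genes higher and 0 lower. It was called for 6 and 1 without nse4a-2_ctrl replicate 1, 54 and 24 without nse4a-2_ctrl replicate 2 and 56 and 14 without nse4a-2_zeb replicate 1. For the wild-type libraries it was 16 and 3 without WT_ctrl replicate 1, 20 and 16 without WT_ctrl replicate 2, 75 and 26 without WT_zeb replicate 1, and 185 and 45 without WT_zeb replicate 2.

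Core histones held 10 of the 44 lower differences, among 44 histone genes tested. Their median was −0.68 in nse4a-2 and 0.03 in wild type. AT3G27360 averaged 40.1 ± 4.06 CPM in nse4a-2_zeb and 97.4 ± 9.81 CPM in nse4a-2_ctrl, and 79.3 ± 20.5 CPM in WT_zeb and 66.6 ± 0.151 CPM in WT_ctrl (SD, n = 2 each), a difference of responses of −1.53 (adjusted p 0.029). HTB2 averaged 135 ± 2.06 CPM in nse4a-2_zeb and 293 ± 35.7 CPM in nse4a-2_ctrl, and 337 ± 18.5 CPM in WT_zeb and 344 ± 3.14 CPM in WT_ctrl (SD, n = 2 each), a difference of −1.09 (adjusted p 0.0296). Among 32 CRKs tested 3 differences were called, all higher, with medians of 1.40 in nse4a-2 and 0.20 in wild type. CRK36 averaged 11.6 ± 3.35 CPM in nse4a-2_zeb and 0.249 ± 0.173 CPM in nse4a-2_ctrl, and 0.333 ± 0.0838 CPM in WT_zeb and 0.339 ± 0.246 CPM in WT_ctrl (SD, n = 2 each). Higher differences were called for 5 of 42 receptor-like proteins tested, 4 of 147 P450s, 3 of 46 MATE carriers and 1 of 137 NLR receptors. Over all genes the share was 0.549%, and the NLR count was near it. EDS5 changed by 3.08 in nse4a-2 and by 0.28 in wild type (adjusted p of the difference 0.0207), and DTX1 by 2.94 and 0.58 (adjusted p 0.0266).

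Of the DNA damage genes edgeR called 0 for the difference, against 2 higher by DESeq2 and 7 at an unadjusted p below 0.05, with medians of 0.62 in nse4a-2 and 0.23 in wild type. SMR7 rose by 2.57 in nse4a-2 and by 2.67 in wild type. Of the photosystem genes edgeR also called 0, against 8 higher by DESeq2 and 10 at an unadjusted p below 0.05, with medians of 0.43 and 0.22. GSTF6 rose by 3.03 in nse4a-2 and by 1.87 in wild type, a difference of 1.16 that did not pass (adjusted p 0.0818). DREB2C moved in opposite directions, rising by 1.81 in nse4a-2 and falling by 1.72 in wild type (adjusted p of the difference 0.0207). The largest differences included genes with opposite calls in the 2 genotypes. COL2 (AT3G02380), a CONSTANS-like factor, fell by 0.79 in nse4a-2 and rose by 1.72 in wild type. RUP2 (AT5G23730), a repressor of the UV-B receptor, fell by 0.95 in nse4a-2 and rose by 1.16 in wild type. HY5 fell by 2 in nse4a-2 and stood at −0.33 in wild type, a difference of −1.67 (adjusted p 0.0239).

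**Figure D4:**
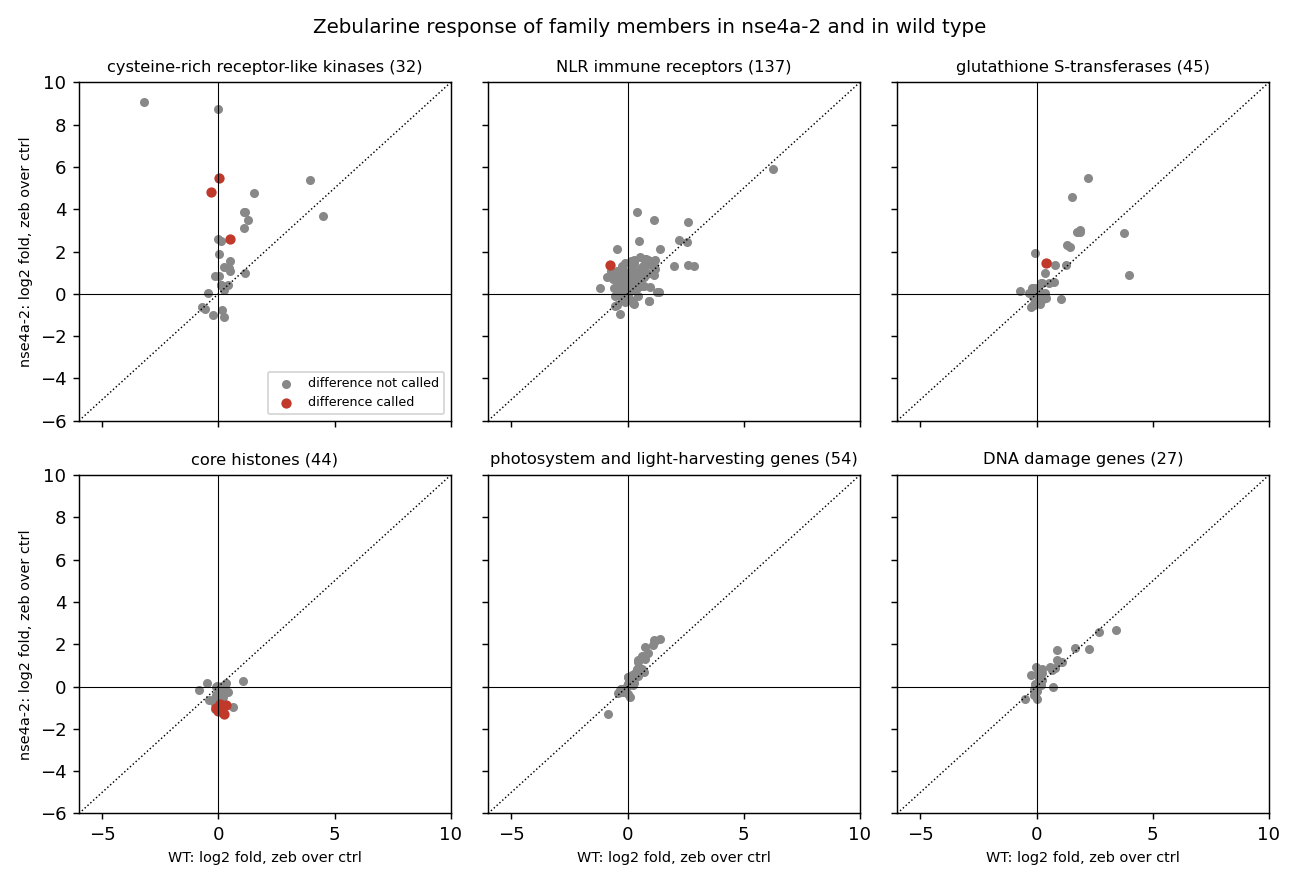
Log2 fold change with zebularine in wild type (x axis) and in nse4a-2 (y axis) for each tested member of 6 gene families, with the number of members in brackets. The dotted line marks equal responses, and red points are genes whose difference was called. Core histones sit below 0 in nse4a-2 and near 0 in wild type (medians −0.68 and 0.03), and DNA damage genes of high values lie near the dotted line, as SMR7 at 2.67 in wild type and 2.57 in nse4a-2. Points near 9 are CRKs with 0 reads in nse4a-2_ctrl, whose fitted values are no bound.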

How the data were processed

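Poly(A) RNA of shoot apices was read as 100-bp single ends. The raw read counts per gene and replicate were deposited by the authors without normalization, per the file headers. The submitters' processing notes name TopHat2, Cuffdiff and TAIR10, without versions or roles; the counting tool, annotation, filters and strand are not given in the sources used here. The authors' deposited log2 fold changes and yes or no calls were used only for the overlap of calls. The other 16 per-sample columns were not used.

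The table lists 32399 genes, 43 without values and 8190 with 0 counts in every library; 31892 matched RefSeq TAIR10.1 by locus tag, which gave names. The files hold no coordinates, so windows of 300 bases and their positions come wholly from TAIR10.1. Counts were filtered with filterByExpr, TMM-scaled and entered into a single model over all 4 groups (edgeR 4.0.16, limma 3.58.1, R 4.3.3), with Benjamini-Hochberg adjustment over 19682 genes. Replicates share 1 GEO sample per group; whether they came from separate cultures is not stated, so p-values measure the spread between these libraries. The common biological coefficient of variation was 13.4%. SE is the log2 fold change divided by the square root of F. Same-numbered replicates deviated together at r of −0.0863 to 0.234, so the number was not a term. A fold against 0 reads is a lower bound against 3 counts over the 2 libraries, the limit at 95% confidence that covers counting error only. CPM are library-scaled.

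Families came from the annotation column and symbols. A gene with reads in a single group can pass the filter through that group, so shares of tested members can include such genes. The members and lists were chosen with earlier results of these data known. Named genes are those with the largest rises (up to 4) and falls (up to 3) of each list and over all genes (8 each way; 6 for the difference), at a mean of at least 1 CPM, or are markers; others are said to be chosen after seeing values. Alternatives were DESeq2 1.42.0, RLE scaling, no filter, a replicate block, the nse4a-2 libraries alone, a 1.5-fold threshold and each library left out. The procedure was tested on simulated data. Summaries used pandas 2.3.3 with numpy 2.4.6 under Python 3.11.15; figures, matplotlib 3.10.9. An item withheld from the text is not reported here.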

Additional observations from a re-analysis of the deposited data

Results flagged for a closer look

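The zebularine response differed between nse4a-2 and wild type, by edgeR's test of the difference (log2, nse4a-2 minus wild type, adjusted p below 0.05), for 25 of the genes named here. The responses of receptor genes were higher in nse4a-2 by 5.47 for CRK36, 5.13 for CRK12 and 2.37 for RLP34. Among transcription and clock factors they were higher by 3.01 for WRKY50, 3.52 for DREB2C and 1.15 for PRR7. In detoxification they were higher by 3.79 for CYP76C2, 2.80 for EDS5, 2.36 for DTX1 and 1.76 for AT1G15170. The root hair gene SHV2 differed by 5.77, the RING-domain gene AT1G14200 by 4.45 and the phosphoglycerate mutase-like gene AT3G60420 by 3.71. AT3G60420 was at 80.7 and 131 CPM in nse4a-2_zeb and at 2.80 and 3.40 CPM in nse4a-2_ctrl, and averaged 1.72 ± 0.353 CPM in WT_zeb and 0.646 ± 0.0986 CPM in WT_ctrl (SD, n = 2 each).

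Lower responses in nse4a-2 were found for the histone genes AT3G27360, at -1.53, AT3G46320, at -1.13, and HTB2, at -1.09. Among growth and wall genes they were -1.10 for GRF9, -1.98 for MYB0 and -0.91 for the pectin lyase-like AT3G53190. Among other regulators they were -1.67 for HY5, -2.51 for COL2, -2.17 for UNE10 (a phytochrome-interacting factor) and -2.11 for RUP2. The clock-related MYB gene RVE1 differed by -2.69 and the glutaredoxin gene AT1G64500 by -1.94. RVE1 and UNE10 were not called within nse4a-2, where they stood at −0.66 and −0.44.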

How the results depend on the processing

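None of the 132 named genes followed through the alternatives, all called in nse4a-2, changed direction under any alternative run. Of the uncalled histone variants, AT4G40040 ran from −0.00 to 0.07 and HTA9 from −0.07 to 0.12 with each library left out. The named genes stayed called in 126 cases with DESeq2, 131 with RLE scaling, 132 with no filter on low counts and 127 with the nse4a-2 libraries alone, but in 80 against a fold of 1.5 and in 76 without nse4a-2_zeb replicate 2. Counts of genes that rose and fell were within 1.5 times of 1760 and 1129 under DESeq2, RLE scaling, no filter and the nse4a-2 libraries alone. Against a fold of 1.5 they were 551 and 72. With each library left out they ran from 552 to 1902 higher and from 161 to 1171 lower. The difference between genotypes was the least stable: against 108 higher and 44 lower, DESeq2 gave 328 and 157, no filter 363 and 214, and leaving out each library 5 to 185 and 0 to 45. For these wide ranges the cause was not tested, except that a fit without 1 library has fewer samples. The replicate block gave 1962 genes higher and 1195 lower in nse4a-2, and 288 and 168 for the difference; the labels do not pair the numbers. Of 23 list counts of 10 or more, DESeq2, RLE scaling, no filter and the block kept 23 within 1.5 times, and leaving out nse4a-2_zeb replicate 2 kept 1. The fold threshold was not run for the difference. Genes below about 1 CPM rest on few reads in 1 group.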
